A study of Mus musculus with 12 samples.

Results

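Cxcl12, Cxcr4 and Ackr3 were followed through all 25 clusters of nuclei from the cortices of 11 mouse embryos. These 3 genes, of 23513 in the count tables, were taken as a listed set, the chemokine ligand Cxcl12 and its receptors. Their data are the number of transcripts seen per nucleus, each marked by a unique molecular identifier (UMI), summed per embryo and cluster and scaled to a common total of UMIs, in units of CPM.

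The mice were C57BL/6J, and dams were injected i.p. on 6 successive days, E8.5 to E13.5, with saline or with 2.5 g/kg ethanol (EtOH) given as a 25% (v/v) solution in saline. Collection was at E14.5 by the methods and at embryonic day 14 by the labels. There were 2 dams per treatment, with dams S1 and E1 processed as batch 1 and dams S2 and E2 as batch 2, and 5 saline embryos (S1-1, S1-2, S2-1, S2-2 and S2-4) and 6 EtOH embryos (E1-1, E1-2 and E2-1 to E2-4) were used. A saline embryo named S2-3 in the labels was not analysed here. Littermates share a dam and were counted as separate samples, so p-values measure the spread between these embryos and not between dams.

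Cxcl12 is a secreted chemokine that binds both receptors. Cxcr4 is a receptor coupled to inhibitory G proteins and steers migrating cells along gradients of the ligand, while Ackr3 is an atypical receptor that works through arrestins and takes up Cxcl12 from the surroundings. In the embryonic cortex, Cxcl12 made by the meninges and by progenitors of the subventricular zone is known to guide interneurons arriving from the ventral forebrain and Cajal-Retzius cells at the pial surface. The authors removed meningeal fibroblasts, pericytes, endothelial cells, microglia and oligodendrocyte precursors before deposit, so the meningeal source of the ligand is outside these tables.

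To place the 3 genes, the 250 bases before their RefSeq start sites (GRCm38.p6) are shown, since each gene had its highest level in a different cluster. They lie at chr6:117168285-117168534 (+ strand) for Cxcl12, chr1:128592300-128592549 (- strand) for Cxcr4 and chr1:90203730-90203979 (+ strand) for Ackr3. Capitals mark the GC box GGGCGG and the hypoxia response core GCGTG, each searched on both strands.
Cxcl12: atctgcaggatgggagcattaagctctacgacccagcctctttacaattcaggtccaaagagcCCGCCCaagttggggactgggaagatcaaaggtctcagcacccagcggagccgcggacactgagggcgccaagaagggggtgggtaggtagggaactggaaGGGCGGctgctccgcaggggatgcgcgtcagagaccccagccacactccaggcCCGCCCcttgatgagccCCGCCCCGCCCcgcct
Cxcr4: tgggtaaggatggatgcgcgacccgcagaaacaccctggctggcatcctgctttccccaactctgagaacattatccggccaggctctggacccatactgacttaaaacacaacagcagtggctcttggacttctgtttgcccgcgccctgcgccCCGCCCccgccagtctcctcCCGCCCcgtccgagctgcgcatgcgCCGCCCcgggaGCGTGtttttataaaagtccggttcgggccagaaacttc
Ackr3: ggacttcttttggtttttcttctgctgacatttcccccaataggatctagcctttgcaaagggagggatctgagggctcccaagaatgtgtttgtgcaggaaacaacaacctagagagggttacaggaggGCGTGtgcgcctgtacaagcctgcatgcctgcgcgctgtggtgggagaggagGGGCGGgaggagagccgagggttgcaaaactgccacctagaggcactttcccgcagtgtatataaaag
The GC box occurred 5 times in the Cxcl12 window, 3 times in that of Cxcr4 and 1 time in that of Ackr3, counting overlapping matches, against at least 1 match in 32.7% of 32851 RefSeq windows of this length. GCGTG occurred 1 time each in the Cxcr4 and Ackr3 windows and not in that of Cxcl12, and was found in 28.2% of all windows. The other core, ACGTG (16.6% of windows), the T-box site TCACACC (3.33%) and the homeodomain site TAATTA (4.84%) were in none of the 3 windows. The GC content was 64.4% for Cxcl12, 61.2% for Cxcr4 and 54% for Ackr3, beside a median of 52.4%. These are letter matches, and no binding was measured. In GENCODE M21 the transcribed genes lie at chr6:117168535-117181367, chr1:128588199-128592293 and chr1:90203980-90216751, and no other annotated gene overlaps them.

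The tables held 50550 nuclei, with 44017566 to 83061737 UMIs per saline embryo and 14078316 to 38034349 per EtOH embryo. The median UMIs per nucleus ranged from 6325 to 9051 in saline and from 4071.5 to 6911 in EtOH embryos, so shares of nuclei with a UMI were also computed for a depth of 2000 UMIs per nucleus. In the authors' clusters the marker lists were highest where the names place them, with the radial glial cell (RGC) list highest in Cluster 12, intermediate progenitor (IPC) in Cluster 6, projection neuron (PN) in Cluster 22, interneuron (Int) in Cluster 23, striatal in Cluster 11 and Cajal-Retzius in Cluster 14. Of 50226 different barcode sequences, 314 (0.625%) occurred in more than 1 embryo.

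One library stood apart from its label. The library labelled saline S2-4 lay nearer to the EtOH libraries than to the other saline libraries, with a root mean square log2 distance over 10922 genes of 0.143 to the EtOH libraries and 0.355 to the other saline libraries. It did so in RGCs, IPCs, PN and Int as well, while each of the other 10 libraries was nearer to its own group in all nuclei and in each of these cell types. Its median of 6325 UMIs per nucleus was the lowest of the saline libraries, the others having 8365 or more. The main comparisons of EtOH with saline are therefore also given without it, while values under another tool, depth or filter include it. Leaving it out was chosen after the data were seen. Without it more genes were called over all nuclei, in the cell types and in the clusters, so a lower adjusted p there goes with a general rise.

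**Figure D1:**
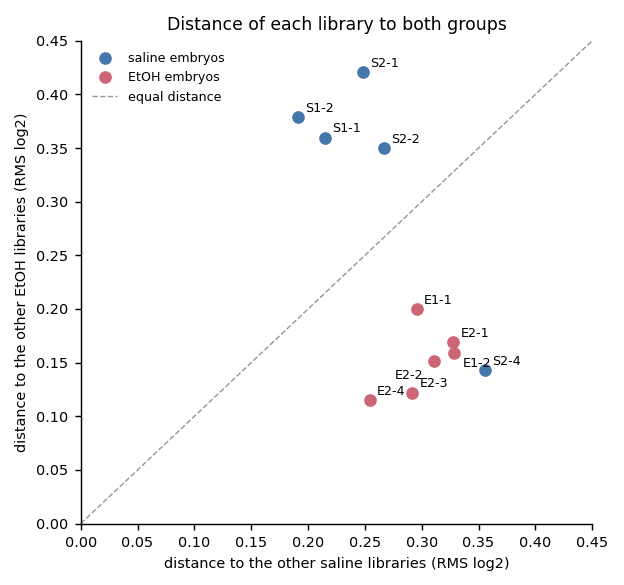
Distance of each of the 11 libraries to the other saline libraries (x axis) and to the other EtOH libraries (y axis), as root mean square log2 difference over all nuclei, 1 point per embryo. The saline library S2-4, at 0.355 and 0.143, lies on the EtOH side of the dashed line of equal distance.

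Cxcl12 was highest in early PN and in IPCs. In Cluster 9 (Early PN) its level was 33.7 ± 12.4 CPM (SD, n = 11), followed by Cluster 6 (Non-mitotic IPC) at 23.1 ± 5.79, Cluster 17 (Mitotic IPC) at 12.6 ± 5.60 and Cluster 8 (PN 1) at 12.6 ± 3.95. The next cluster, Cluster 10 (Late Int Precursor), had 6.25 ± 6.17 CPM, with 24 CPM in E1-2 from 11 UMIs in 55 nuclei. Clusters below it ranged down to 1.09 CPM in Cluster 25 (PN 3), where 5 of 7 embryos had no UMI. Along this order the neighbouring clusters differed beyond their spread, here by more than the larger of both SDs, only between Clusters 6 and 17 and between Clusters 8 and 10, each in the same direction in 10 of 11 embryos. Differences between clusters are given without a test, since the clusters were made from the same counts.

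Of the 2494 Cxcl12 UMIs, PN held 47.0% and IPCs 26.7%, although IPCs were 9.41% of all nuclei. Clusters 9, 6 and 17 together held 45.7% of the UMIs in 14.3% of the nuclei. A Cxcl12 UMI was found in 14.4% of nuclei of Cluster 9 (exact 95% binomial interval 13% to 15.9%) and in 10.4% of those of Cluster 6 (9.41% to 11.4%). In Cluster 11 (Striatal Int), taken as nuclei that should lack the ligand, the share was 1.77% (1.26% to 2.41%), at a median of 8528 UMIs per nucleus against 5566 in Cluster 9 and 5494 in Cluster 6. At 2000 UMIs per nucleus the shares were 6.20%, 4.36% and 0.329% in Clusters 9, 6 and 11. These intervals cover counting error only. Among nuclei with any Cxcl12 UMI, 80.2% held a single one, and the most in 1 nucleus was 6.

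**Figure D2:**
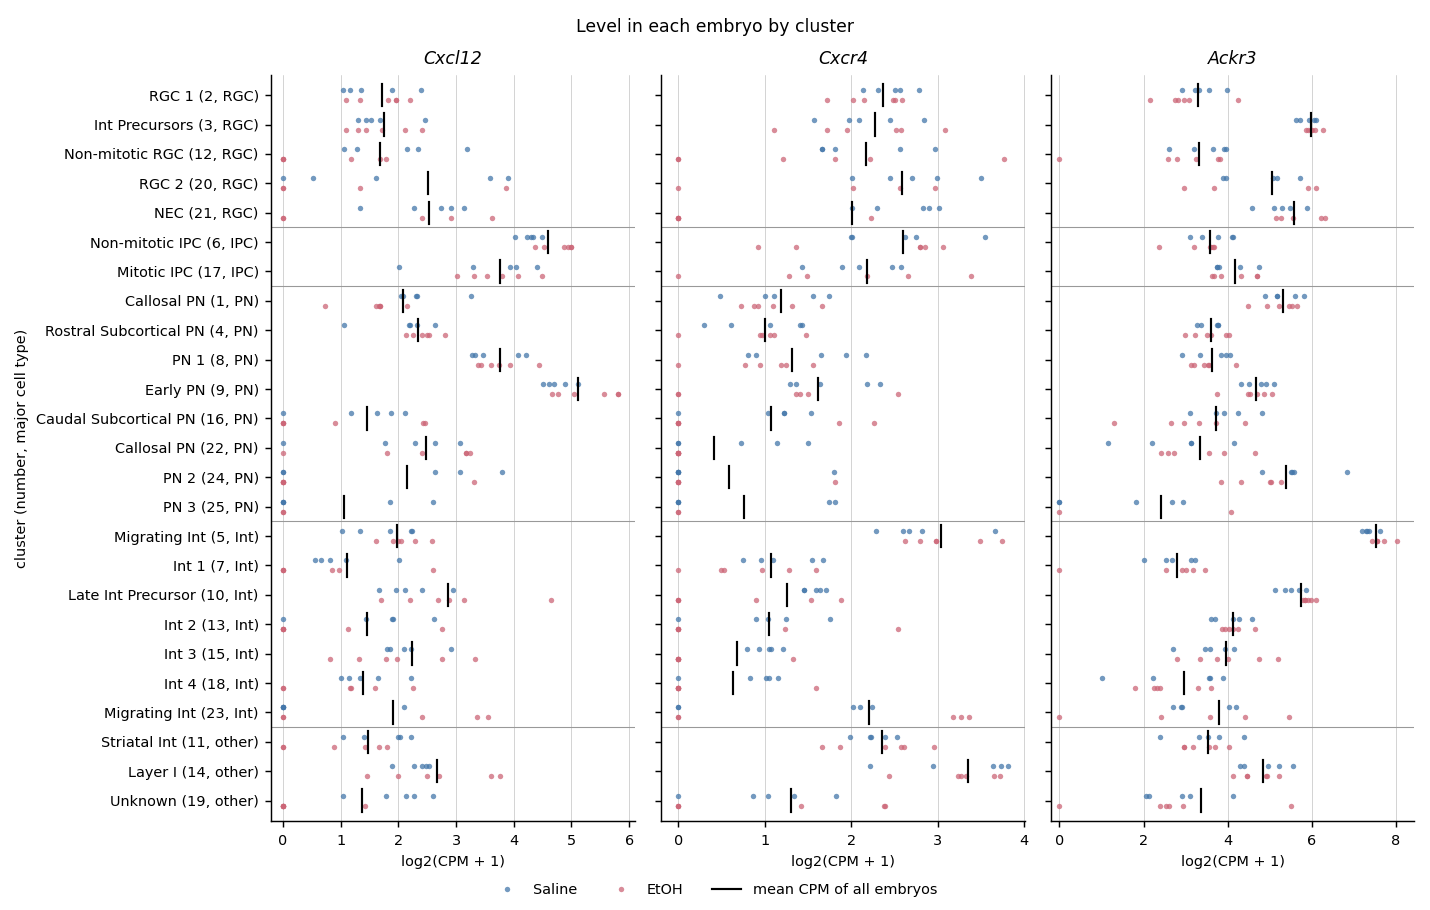
Level of each gene as log2(CPM + 1) on the x axis in each cluster, 1 point per embryo coloured by treatment, with a black bar at the mean CPM of the embryos. Cxcl12 is highest in Clusters 9 and 6, Cxcr4 in Clusters 14 and 5, and Ackr3 in Cluster 5, where its points lie above those of the other clusters in every embryo.

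Cxcr4, the signalling receptor, had its highest level in Layer I nuclei and a low level in many clusters. Cluster 14 (Layer I), whose Cajal-Retzius marker list reached 11290 CPM, had 9.21 ± 3.25 CPM of Cxcr4 (SD, n = 11), and Cluster 5 (Migrating Int) had 7.21 ± 2.87. Cluster 6 (Non-mitotic IPC) had 5.03 ± 2.79 CPM, Cluster 20 (RGC 2) 5.0 ± 2.93 (n = 9) and Cluster 2 (RGC 1) 4.17 ± 1.04. The lowest level, 0.333 CPM, was in Cluster 22 (Callosal PN), where 8 of 11 embryos had no UMI. None of the 24 pairs of neighbours in this order differed beyond the spread between embryos.

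Of the 1293 Cxcr4 UMIs, RGCs held 30.01%, Int 24%, PN 15.9% and IPCs 12.6%, in 23.4%, 27.2%, 31.7% and 9.41% of all nuclei. Clusters 11, 14 and 19, outside these cell types, held 17.6% in 8.23% of the nuclei. Cluster 3 (Int Precursors) is counted among the RGCs and held 113 of their 388 UMIs. Of nuclei with the transcript, 94.5% had a single UMI. In Cluster 14, 8.77% of nuclei held a Cxcr4 UMI (7.28% to 10.4%), and in Cluster 5, 4.94% (4.27% to 5.67%). RGC 1, the cluster taken as background for this gene, had 3.80% (3.25% to 4.41%) and was itself the fifth highest by CPM. It therefore does not serve as nuclei free of the transcript, and the lowest shares were 0.539% in Cluster 22 and 0.515% in Cluster 18. At 2000 UMIs per nucleus Clusters 14, 5 and 2 had 1.91%, 1.60% and 0.897%.

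Ackr3, the atypical receptor, was concentrated in migrating interneurons. Its level was 184 ± 32.1 CPM in Cluster 5 (Migrating Int; SD, n = 11) and 61.7 ± 7.64 CPM in Cluster 3 (Int Precursors), and Cluster 5 was the higher in 11 of 11 embryos. Cluster 10 (Late Int Precursor) followed with 52.9 ± 9.88 CPM, then Cluster 21 (labelled NEC, cortical hem RGCs in the paper) with 46.6 ± 18.1 (n = 10). Next were Cluster 24 (PN 2) with 40.9 ± 27.7 (n = 10) and Cluster 1 (Callosal PN) with 38.7 ± 10.2. Beyond these, levels fell to 4.33 ± 5.74 CPM in Cluster 25 (n = 7). Besides the step from Cluster 5 to Cluster 3, the step from Cluster 9 (24.6 ± 6.17) to Cluster 17 (17 ± 5.85) exceeded the spread, in 10 of 11 embryos.

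The Int clusters were not alike for this receptor. Cluster 23, also named Migrating Int and highest for the Int marker list, had 12.9 ± 12.3 CPM (n = 10), and Cluster 7 (Int 1) had 5.97 ± 2.80, the lowest level after Cluster 25. Cluster 14, highest for Cxcr4, had 27.6 ± 9.19 CPM of Ackr3. Of the 13773 Ackr3 UMIs, Int held 51.5%, RGCs 20.1%, PN 19.9% and IPCs 3.22%, and Clusters 5, 3 and 10 held 59.5% in 20.4% of the nuclei. Cluster 3 (Int Precursors) is counted among the RGCs, here and in the tests by cell type, and held 1788 of their 2770 Ackr3 UMIs.

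An Ackr3 UMI was found in 62.1% of the nuclei of Cluster 5 (60.5% to 63.6%), 28.6% of Cluster 3 (27.3% to 30.1%) and 24.2% of Cluster 10 (22.5% to 26%). The share in RGC 1, used as background, was 5.87% (5.19% to 6.61%), at a median of 7486.5 UMIs against 6652 in Cluster 5. At 2000 UMIs per nucleus the shares in Clusters 5, 3, 10 and 2 were 31.5%, 11.5%, 9.57% and 1.31%. Within Cluster 5, 37.9% of nuclei had no Ackr3 UMI, 24.7% had 1, 17.2% had 2, and 6.20% had 5 or more, with a maximum of 11.

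Both receptors were seen in the same nuclei of Cluster 5. Of its 3809 nuclei, 188 held Cxcr4, 2364 held Ackr3 and 143 held both. Since nuclei with Cxcr4 had more UMIs (median 7922.5 against 6604), the share with Ackr3 was compared at 2000 UMIs per nucleus. It was 39.0% among nuclei with Cxcr4 and 30.6% among the others, and was higher among the former in 11 of 11 embryos, where it ranged from 31.4% to 56.1% against 25.9% to 43.2%. In Cluster 14, 29 of 1289 nuclei held both transcripts, and the shares with Ackr3 were 7.15% and 5.47%, with the former higher in 7 of 11 embryos. The shares were 10.999% and 11.080% in Cluster 3 and 5.75% and 9.85% in Cluster 10, where 109 and 31 nuclei held Cxcr4, so that in these clusters Ackr3 was not more frequent among nuclei with Cxcr4. In Clusters 2, 6, 11 and 20 the share was higher among nuclei with Cxcr4. Doublets were not called here, and their part in nuclei with both transcripts was not tested.

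Over the 25 clusters, the levels as log2(mean CPM + 1) correlated with r = 0.23 between Cxcl12 and Cxcr4, 0.20 between Cxcl12 and Ackr3, and 0.40 between Cxcr4 and Ackr3. Among 11620 genes reaching 10 CPM in a cluster, the patterns most like that of Cxcl12 were those of A930024E05Rik (r = 0.87), Kdm2b, a histone demethylase (0.86), Plekhf2 (0.86), Tspan14 (0.83) and Trp53inp1, a p53 target (0.83). A930024E05Rik overlaps Kdm2b on the other strand, so their reads may be shared where strand was not used in counting. For Cxcr4 the 5 genes were Chd7, a chromatin remodeller (0.74), Ndufa4, Ccdc66, Manbal and Mab21l3 (each 0.74). For Ackr3 they were Tiparp (0.73), the growth factor gene Tgfb3 (0.68), the kinesin gene Kif2a (0.67), Chic2 (0.66) and Ubqln2 (0.66). These points share libraries and depth, and the coefficients are descriptions over clusters.

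The levels of the 3 genes were then compared between EtOH and saline embryos, first over all nuclei. Cxcl12 was at 5.56, 4.44, 3.59, 7.18 and 6.18 CPM in saline embryos S1-1, S1-2, S2-1, S2-2 and S2-4, and at 5.47 to 7.44 in EtOH embryos with a median of 6.50. Cxcr4 was at 3.33, 2.49, 2.08, 4.38 and 3.13 CPM in the same saline embryos and at 2.04 to 3.72 in EtOH embryos with a median of 2.63. Ackr3 was at 30.3, 25.9, 33.3, 27.5 and 36.9 CPM in saline and at 29.3 to 40.3 in EtOH embryos with a median of 31.4. For each gene the groups overlapped, and the highest Ackr3 value was that of E1-1.

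None of the 3 genes passed the test over all nuclei, where 12.1% of 18138 genes were called by edgeR's quasi-likelihood test, with the study's limits on the Benjamini-Hochberg adjusted p and on the fold change. The log2 fold change, EtOH against saline, was 0.20 for Cxcl12 (95% interval -0.12 to 0.52, edgeR adjusted p = 0.331), -0.24 for Cxcr4 (-0.65 to 0.17, adjusted p = 0.366) and 0.00 for Ackr3 (-0.19 to 0.20, adjusted p = 0.977). The interval of Ackr3 lay within the limits on the fold change on both sides, and those of Cxcl12 and Cxcr4 reached past one of them. Without S2-4 the values were 0.23, -0.26 and 0.05, and again 0 of 3 were called, while the genes called over all nuclei rose from 2193 to 4129. At an unadjusted p under 0.05 there were 0 of 3, against 38.1% of all genes, and DESeq2 and limma voom called 0 of 3. A value over all nuclei also moves with the make-up of the clusters.

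In the 4 major cell types, 0 of 12 tests of the 3 genes passed, with or without S2-4, against 4.32% of 54969 gene and cell type pairs called, or 2373, which rose to 9915 without S2-4. At an unadjusted p under 0.05 there was 1 of 12, Cxcl12 in IPCs, and 28.9% of all pairs. DESeq2, and limma voom with dams as random blocks, also called 0 of 12. In IPCs, Cxcl12 was at 19.9, 13.1, 19.1, 13.6 and 16.9 CPM in S1-1, S1-2, S2-1, S2-2 and S2-4 and at 15.9 to 26.7 in EtOH embryos with a median of 23.9. All 4 EtOH embryos of batch 2 were above every saline embryo, and both of batch 1 were within the saline range. The log2 fold change was 0.38 (0.03 to 0.73, edgeR adjusted p = 0.179), and 0.37 without S2-4 (adjusted p = 0.153).

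Within batches, Cxcl12 in IPCs averaged 16.5 CPM in saline and 16.6 in EtOH embryos in batch 1, and 16.5 and 25.1 in batch 2, where the saline mean was 16.4 without S2-4. The difference between batches in the log2 EtOH effect was 0.71 (edgeR interaction, adjusted p = 0.583), or 0.72 without S2-4 (adjusted p = 0.492). Of the 15 such tests of the 3 genes over all nuclei and cell types, 0 passed, in fits where 0 or 1 of 11558 to 18138 genes passed. The share of all genes with an unadjusted p under 0.05 in these fits was not computed. Of the 15 tests, 3 had such a p, Cxcl12 in IPCs among them. The others were Cxcl12 in Int (-1.41, adjusted p = 0.852) and Ackr3 in PN (-0.76). Without S2-4, 0 passed, in fits where 1 to 90 genes passed. An unadjusted p under 0.05 was found in 4, again with no share over all genes beside it. Besides Cxcl12 in IPCs, these had -1.38 for Cxcl12 in Int, -0.85 for Ackr3 in PN and -0.91 for Ackr3 in IPCs.

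In the 25 clusters, 27 of the 75 pairs of gene and cluster had enough counts to be tested, 5 for Cxcl12, 4 for Cxcr4 and 18 for Ackr3. None was called, against 0.792% of 217253 gene and cluster pairs, and none of 28 without S2-4, where 8.78% of pairs were called. With no filter on low counts, 1 of 75 pairs was called, Cxcl12 in Cluster 1 (log2 fold change -1.10, edgeR adjusted p = 0.0437). In those unfiltered fits 10729 gene and cluster pairs were called in all. Their share of the pairs tested is not given, so the 1 of 75 is not set against it. In the filtered fits, EtOH embryos were higher in 14 of the 27, and 4 of the 27 had an unadjusted p under 0.05, against 17.4% of all pairs. DESeq2 and limma voom called 0 of 27 as well.

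**Figure D3:**
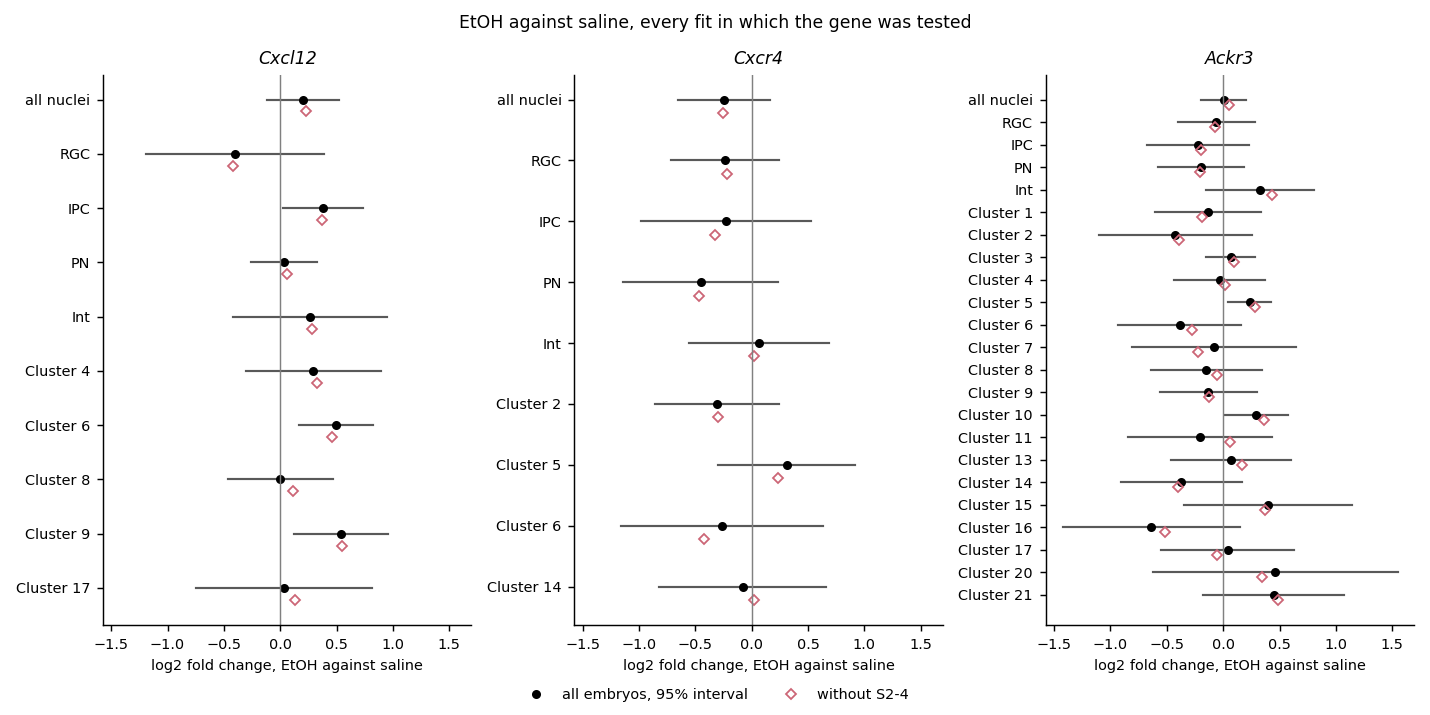
Log2 fold change of EtOH against saline on the x axis for each gene in every cluster, cell type and over all nuclei where it was tested, as points with 95% intervals, and open diamonds for the fits without S2-4. None of the points passed the test, and the intervals that leave out 0 are those of Cxcl12 in IPCs and Clusters 6 and 9 and of Ackr3 in Clusters 5 and 10.

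Cxcl12 was higher on average in EtOH embryos in both clusters where its level was highest, without passing the test. In Cluster 9 it was at 25, 23.4, 21.8, 33.6 and 28.8 CPM in S1-1, S1-2, S2-1, S2-2 and S2-4, and at 24.4 to 55.1 in EtOH embryos with a median of 39.1. The groups overlapped, and 3 of 6 EtOH embryos lay above every saline embryo. The log2 fold change was 0.54 (0.12 to 0.96, edgeR adjusted p = 0.138), or 0.55 without S2-4 (adjusted p = 0.0826). Batch 1 averaged 24.2 CPM in saline and 35.3 in EtOH, and batch 2 28.1 (27.7 without S2-4) and 42.0.

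In Cluster 6, Cxcl12 was at 21.5, 15.2, 18.6, 19.3 and 17.7 CPM in the same saline embryos and at 19.7 to 31.0 in EtOH embryos with a median of 29.0. Here 5 of 6 EtOH embryos lay above every saline embryo, and E1-1 lay within the saline range. The log2 fold change was 0.49 (0.17 to 0.82, edgeR adjusted p = 0.0971), and 0.46 without S2-4 (adjusted p = 0.0620). Batch 1 averaged 18.3 CPM in saline and 20.8 in EtOH, and batch 2 18.5 (18.9 without S2-4) and 29.9. In Cluster 17, saline embryos had 14.3, 8.81, 20.2, 3.03 and 15.5 CPM and EtOH embryos 7.09 to 21.5 with a median of 11.7. The log2 fold change there was 0.03 (-0.75 to 0.81), or 0.13 without S2-4. In the remaining clusters tested for Cxcl12 it was 0.00 (-0.47 to 0.47) in Cluster 8 and 0.29 (-0.30 to 0.89) in Cluster 4. Without S2-4 these were 0.12 and 0.33. By cell type, Cxcl12 had 0.03 in PN, -0.40 in RGCs and 0.27 in Int, or 0.06, -0.41 and 0.28 without S2-4.

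Transcripts of the removed meningeal fibroblasts, known makers of Cxcl12, were set beside these values. The summed level of the 8 listed genes (Col1a1, Col1a2, Col3a1, Lum, Dcn, Foxc1, Foxd1 and Slc6a13), of which 0 were at 0 over all nuclei, was 7.10 to 28.0 CPM in saline and 3.70 to 8.31 in EtOH embryos, with the 28.0 in S2-2. In Cluster 6 it was 7.66 to 29.9 CPM in saline and 0 to 7.31 in EtOH, and in Cluster 9 it was 4.36 to 39.9 and 2.07 to 10.1. In Cluster 9 the Cxcl12 level was 31.9 CPM in the 133 nuclei with a meningeal UMI and 30.2 in the 2324 without, and in Cluster 6 it was 7.84 and 22.7. Without the nuclei that held a meningeal UMI, the log2 fold change of Cxcl12 was 0.46 in Cluster 9 (edgeR adjusted p = 0.206) and 0.42 in Cluster 6 (adjusted p = 0.132). The part of free meningeal RNA in the remaining nuclei was not tested.

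For Cxcr4 no cluster had an interval that left out 0. In Cluster 14 it was at 6.68, 11.5, 3.64, 12.3 and 13.1 CPM in S1-1, S1-2, S2-1, S2-2 and S2-4 and at 4.40 to 12.2 in EtOH embryos with a median of 8.83, with a log2 fold change of -0.08 (-0.82 to 0.66), or 0.02 without S2-4. In Cluster 5 it was at 6.07, 3.86, 5.33, 11.6 and 5.03 CPM in saline and at 5.13 to 12.4 in EtOH embryos with a median of 6.88, with a log2 fold change of 0.31 (-0.30 to 0.92), or 0.24 without S2-4. In Cluster 6 it was at 5.13, 5.69, 3.03, 10.7 and 3.00 CPM in saline and at 0.886 to 7.31 in EtOH embryos with a median of 5.91, with a log2 fold change of -0.26 (-1.16 to 0.63), or -0.42 without S2-4. The groups overlapped in all 3 clusters. The intervals in Clusters 14 and 6 reached past the limits on the fold change on both sides and that in Cluster 5 past the upper one, so that changes of that size lay within them. They rest on 126, 126 and 201 UMIs.

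Ackr3 was higher on average in EtOH embryos in Clusters 5 and 10, where its intervals left out 0. In Cluster 5 it was at 159, 146, 163, 154 and 195 CPM in S1-1, S1-2, S2-1, S2-2 and S2-4 and at 173 to 261 in EtOH embryos with a median of 188. All 6 EtOH embryos lay above 4 of the 5 saline embryos, and S2-4 lay within the EtOH range. The log2 fold change was 0.24 (0.04 to 0.43, edgeR adjusted p = 0.133). Without S2-4 it was 0.28 with an adjusted p of 0.0392, which passes the limit on p but not that on the fold change. S2-4 was left out after the data were seen and had the highest saline value here. Without it, 30.8% of all genes tested in this cluster had an unadjusted edgeR p under 0.05, against 22.8% with all embryos. Batch 1 averaged 152 CPM in saline and 225 in EtOH, and batch 2 171 (159 without S2-4) and 189.

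In Cluster 10, Ackr3 was at 50.4, 44.7, 40.1, 33.8 and 57.0 CPM in the same saline embryos and at 54.5 to 67.2 in EtOH embryos with a median of 57.6. Again all EtOH embryos lay above the saline embryos other than S2-4. The log2 fold change was 0.29 (0.02 to 0.57, edgeR adjusted p = 0.289), or 0.36 without S2-4 (adjusted p = 0.101). In Cluster 3 the saline values were 60.5, 48.5, 51.8, 65.7 and 67.4 CPM and the EtOH values 57.4 to 76.3 with a median of 62.3, and the log2 fold change was 0.07 (-0.15 to 0.28), or 0.10 without S2-4. Over all Int nuclei the log2 fold change was 0.32 (-0.15 to 0.80, adjusted p = 0.358), and in the other cell types it was -0.06 in RGCs, -0.22 in IPCs and -0.20 in PN. Without S2-4 the 4 values were 0.44, -0.07, -0.20 and -0.20. In the other clusters tested, Ackr3 went both ways, with intervals that held 0. The largest rises were 0.46 in Cluster 20, 0.45 in Cluster 21 and 0.40 in Cluster 15 (0.35, 0.49 and 0.37 without S2-4). Values of -0.64, -0.42, -0.39 and -0.37 were found in Clusters 16, 2, 6 and 14 (-0.52, -0.40, -0.27 and -0.40 without S2-4).

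**Figure D4:**
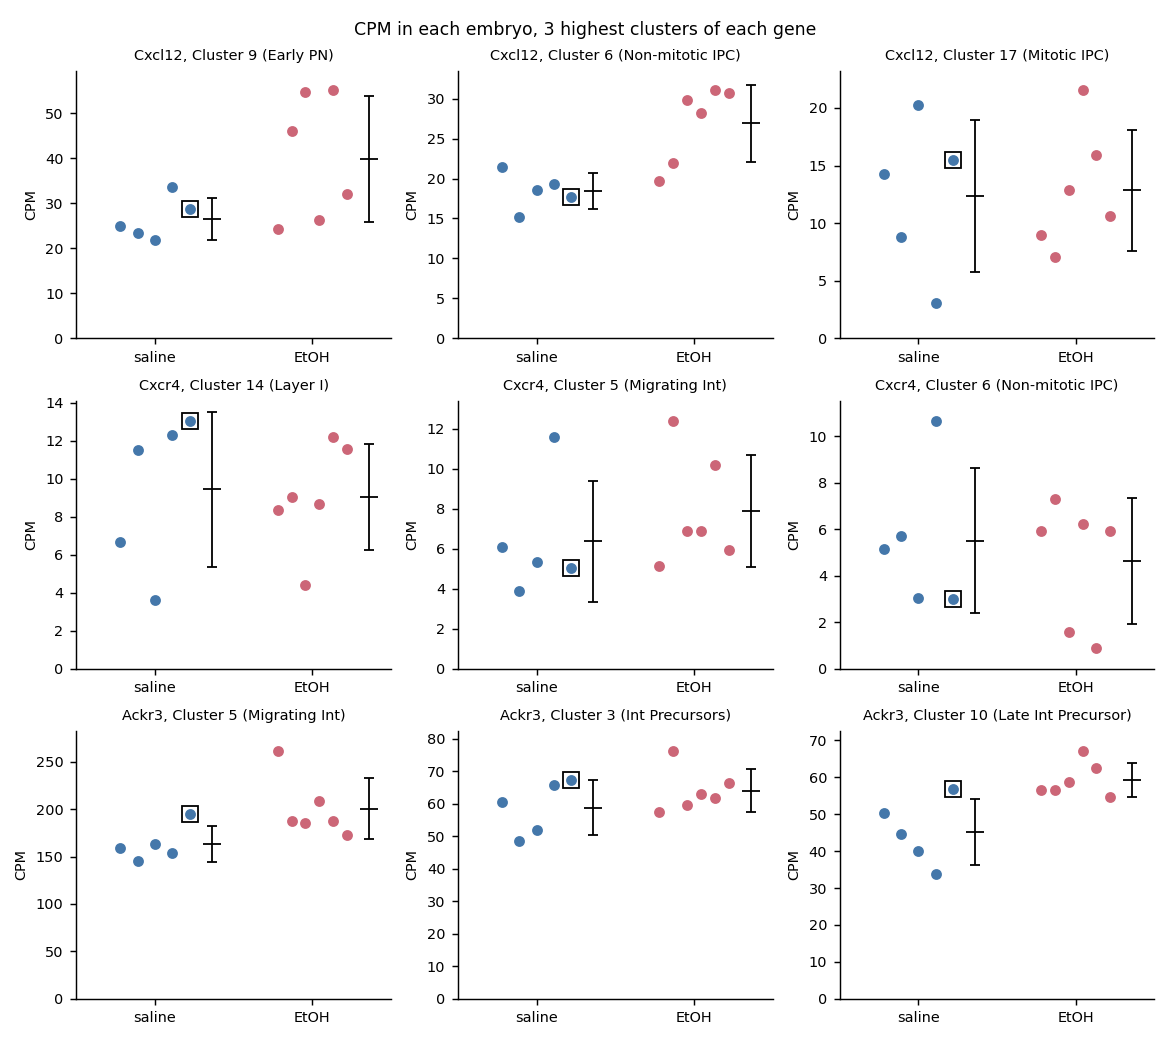
CPM of each gene on the y axis in each embryo, saline and EtOH side by side, in the 3 clusters where the gene was highest, with bars for mean and SD and a square around S2-4. In Cluster 5 the Ackr3 values of the 6 EtOH embryos, 173 to 261, lie above those of saline embryos other than S2-4, at 195.

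The share of nuclei with a UMI at 2000 UMIs per nucleus was set against the treatment by exact permutation of the embryos (two-sided, on group means), with 462 splits of 11 embryos and a smallest possible p of 0.00216. Of the 75 pairs of gene and cluster 0 passed the adjustment and 10 had an unadjusted p under 0.05 (0 and 9 without S2-4), against 12.3% of all gene and cluster pairs with 10 or more UMIs. Of 12 in the major cell types 0 passed and 1 had such a p, against 20.9% of all gene and cell type pairs. Cxcl12 was found in 3.62 ± 0.241% of Cluster 6 nuclei in saline and 4.97 ± 0.726% in EtOH embryos (exact permutation p = 0.0108, adjusted p = 0.298), and without S2-4 the saline share was 3.65% (exact permutation p = 0.00952, adjusted p = 0.238). In IPCs together the share was 3.36 ± 0.398% and 4.58 ± 0.733% (exact permutation p = 0.0152, adjusted p = 0.182), with 3.37% in saline without S2-4 (exact permutation p = 0.0286, adjusted p = 0.343). Ackr3 was found in 28.4 ± 2.53% of Cluster 5 nuclei in saline and 34.0 ± 4.73% in EtOH embryos (exact permutation p = 0.0238, adjusted p = 0.298), and without S2-4 the saline share was 27.3% (exact permutation p = 0.0143, adjusted p = 0.238). With all UMIs the direction turned, with 62.5% in saline and 62.0% in EtOH embryos (exact permutation p = 0.861).

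In 4 clusters where the Cxcl12 level was low, its share was lower in EtOH embryos at an unadjusted p under 0.05, without passing the adjustment. Of all gene and cluster pairs, 5.75% had such a p with a lower mean share in EtOH embryos. In Cluster 1 (Callosal PN) the share was 0.974% in saline and 0.444% in EtOH embryos (exact permutation p = 0.0173, adjusted p = 0.298), or 1.05% in saline without S2-4 (exact permutation p = 0.0190, adjusted p = 0.238), and the CPM were 3.15, 3.98, 3.95, 8.52 and 3.22 in saline and 0.655 to 3.43 in EtOH embryos with a median of 2.19. The 8.52 was that of S2-2, the embryo with the highest meningeal and erythroid transcripts, whose part in it was not tested. With no filter on low counts, Cxcl12 in Cluster 1 was called, in fits whose share of all pairs called is not given. Clusters 11, 12 and 19 had 0.508%, 0.725% and 0.521% in saline and 0.181%, 0.147% and 0.0928% in EtOH embryos, so that in the striatal cluster taken as background the mean share was lower in EtOH embryos too. Without S2-4 the saline shares were 0.527%, 0.769% and 0.411%, and the exact permutation p was 0.0571, 0.0333 and 0.138. In Cluster 9 the Cxcl12 share was higher, 4.95% in saline and 7.25% in EtOH embryos (exact permutation p = 0.0433, adjusted p = 0.325). Lower shares were found for Ackr3 in Cluster 6, 2.21% and 1.47% (exact permutation p = 0.0433, adjusted p = 0.325). The same held for Cxcr4 in Cluster 15, 0.242% and 0.0425% (exact permutation p = 0.0216, adjusted p = 0.298). For these pairs the values without S2-4 are not given here.

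For Cxcr4, the lowest p was in Cluster 21 (NEC), with 0.985 ± 0.299% of nuclei in saline and 0.0984 ± 0.220% in EtOH embryos (exact permutation p = 0.00794, the smallest that 5 against 5 embryos allow, adjusted p = 0.298). Without S2-4 the saline share was 0.953% (exact permutation p = 0.0159, adjusted p = 0.238). The UMIs behind it were 5, 2, 2, 14 and 5 in S1-1, S1-2, S2-1, S2-2 and S2-4, and 1 in E1-2 with 0 in each of the other EtOH embryos. E2-1 had 3 nuclei in this cluster and was left out. The other EtOH embryos had 24 to 45 nuclei each, against 45 to 206 in saline embryos, and the pair had too few counts for the edgeR test. The paper classifies this cluster as cortical hem RGCs and reports a lower percentage of its cells after EtOH.

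The calls on shares differed with the depth used. Without scaling to 2000 UMIs per nucleus, 3 of 12 tests in the cell types passed (exact permutation, each adjusted p = 0.0433): Ackr3 fell from 8.15% to 5.46% of IPC nuclei and from 14.0% to 9.70% of PN nuclei, and Cxcl12 from 2.13% to 1.17% of RGC nuclei. With all UMIs 4 of the 12 had an unadjusted p under 0.05, against 37% of all gene and cell type pairs, and 76.8% of all pairs had a lower mean share in EtOH embryos. For Cxcl12 in RGCs the saline embryos had 2.12%, 1.31%, 1.42%, 4.05% and 1.78%, the 4.05% in S2-2, and the saline mean was 1.66% without S2-2. At 2000 UMIs per nucleus the shares were 2.36% and 1.79% for Ackr3 in IPCs, 4.17% and 3.51% for Ackr3 in PN, and 0.527% and 0.313% for Cxcl12 in RGCs. These differences had the same direction and did not pass (exact permutation, adjusted p = 0.312, 0.553 and 0.312), and without S2-2 the saline share of Cxcl12 in RGCs was 0.403%. The ratio of the EtOH to the saline share was not tested between depths.

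**Figure D5:**
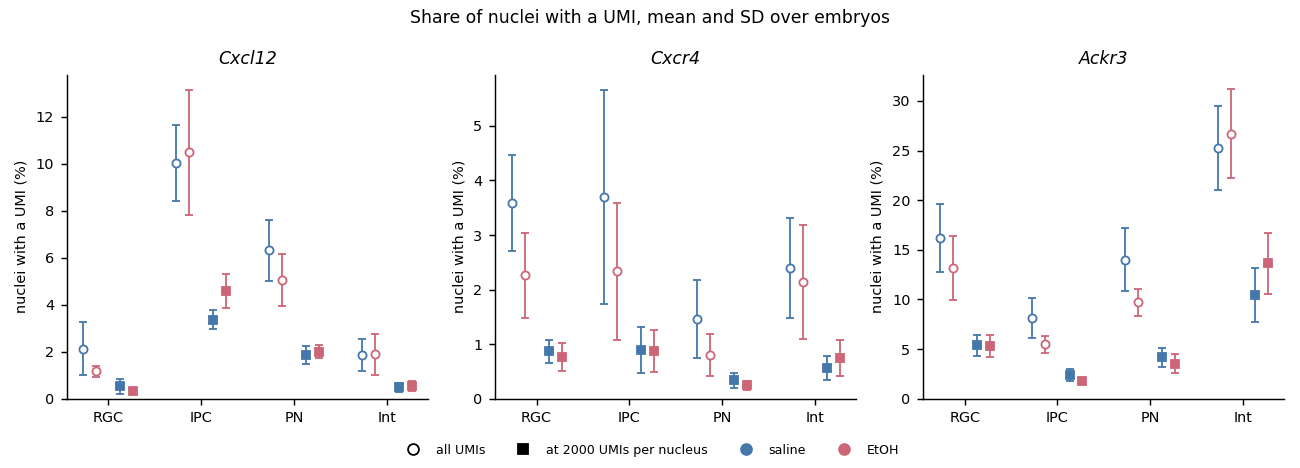
Share of nuclei with a UMI of each gene in percent on the y axis in RGC, IPC, PN and Int, for saline and EtOH embryos, with all UMIs and at 2000 UMIs per nucleus, as mean and SD over embryos. Saline shares of Ackr3 in PN lie above EtOH shares with all UMIs, 14.0% against 9.70%, a difference that did not pass the test at 2000 UMIs per nucleus.

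The genes that act beside the receptors were taken from lists chosen with earlier results of these data known, and were tested over all nuclei. There the median log2 fold change of all genes tested was 0.01, and 12.1% of them were called, 1550 up and 643 down of 18138. Of 6 arrestins and receptor kinases, which bind active receptors, 2 rose, Arrb2 by 0.36 (edgeR adjusted p = 0.0254) and Grk6 by 0.36 (adjusted p = 0.0305), and 0 fell, with a median of 0.18. Of 7 G protein subunits, Gng3 rose by 0.64 (adjusted p = 0.0154) and Gnai2, an inhibitory alpha subunit, fell by 0.33 (adjusted p = 0.0253), with a median of -0.13. Of 26 downstream effectors, Ptk2b, a focal adhesion kinase relative, rose by 0.63 (adjusted p = 0.0442) and 0 fell, with a median of -0.10. Of 3 other ligands and ligand processing genes tested, 0 were called, and Dpp4, which cleaves Cxcl12, had 0.41 (adjusted p = 0.152).

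Without S2-4 the calls were 2 up of 6 arrestins and kinases, 1 up and 1 down of 7 G protein subunits, and 2 up (Ptk2b and Akt1) and 1 down (Plcb4) of 26 effectors, beside 23.02% of all genes in the same fit. Of all gene and cell type pairs 4.32% were called, with 609 genes up and 345 down of 14604 in PN, 523 and 178 of 14525 in Int, 330 and 212 of 14282 in RGCs and 102 and 74 of 11558 in IPCs. Arrb2 (0.39) and Grk6 (0.43) rose in PN, and Grk6 (0.42) rose in Int. Gng3 rose in PN (0.50) and Int (0.62), Akt1 rose (0.41) and Elmo1, an activator of Rac, fell (-0.43) in RGCs, and none of the genes of these lists was called in IPCs. Without S2-4, when 18.02% of all pairs were called, the calls in RGCs were 2 up of 6 arrestins and kinases, 1 up of 7 G protein subunits, and 1 up and 1 down of 24 effectors. In Int they were 2 up, 1 up and 1 up of 24, in PN 2 up, 1 up, and 1 up (Akt1) and 2 down (Plcb4 and Vav3) of 25, and in IPCs Gng3 (1.23) and Akt1 (0.52) rose. Dpp4 (0.53) also rose in PN without S2-4. Over the clusters, the gene of each list with the most CPM was Gng2 in Cluster 23 at 676 CPM, Grk5 in Cluster 11 at 170 CPM, Plcb1 in Cluster 9 at 5498 CPM and Mif, another ligand of Cxcr4, in Cluster 12 at 13.2 CPM. Gng3 overlaps Bscl2 on the other strand, and Dpp4, Elmo1 and Plcb4 overlap predicted genes there. The strand used in counting is not stated, so these values are uncertain.

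The list of other chemokine and receptor genes was also chosen with earlier results of these data known. Of its 14 genes tested over all nuclei, with a median log2 fold change of 0.39, 4 rose and 0 fell, beside the 12.1% of all genes called. Those that rose were Cxcr5 (0.80), Ackr4 (0.64), Cx3cr1 (0.67) and Ccr9 (0.81). Without S2-4, 6 rose and 1, Ackr1, fell of 13, beside 23.02% of all genes, and Cxcr6 (0.87) was among those that rose. By cell type, 2 of 9 rose in PN, 2 of 9 in RGCs, 1 of 9 in Int and 0 of 6 in IPCs, and 0 fell, beside the 4.32% of all pairs called. Without S2-4 the counts were 4, 4, 3 and 3, beside 18.02% of all pairs. Each of the 4 genes called with all embryos overlaps another gene, and so do Ackr1 and Cxcr6. On the same strand, Cx3cr1 overlaps Csrnp1, Gorasp1 and Xirp1, Ccr9 overlaps Gm17200, and Ackr1 overlaps Cadm3. On the other strand, Cxcr5 overlaps Bcl9l, Ackr4 Acad11 and Cxcr6 Fyco1, while Cx3cr1 overlaps Wdr48 and Ccr9 Lztfl1, among others. Reads of these genes and those of the neighbours may therefore not be told apart. Cx3cr1 is also a microglial marker. The summed microglial list was 15.1 to 32.5 CPM in saline, the 32.5 in S2-4, and 27.9 to 37.4 in EtOH embryos. That list holds Cx3cr1 itself, so its sum is no separate measure to set beside Cx3cr1. The part of microglial RNA in these values was not tested. Ccl25, with the most CPM of this list, was at 101 CPM in Cluster 12.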

How the data were processed

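Single-nucleus libraries of 11 embryos were made with the 10x 3′ chemistry. Reads were mapped by the authors with Cell Ranger at default settings (mm10, version and annotation not given in the sources used here), who filtered nuclei, clustered them with Seurat and Harmony, removed non-neuronal clusters and 1 saline sample, and deposited raw UMI counts in 275 tables, 1 for each embryo and cluster. Doublets were not called here.

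Counts were summed per embryo and cluster (leaving out 9 pairs with under 10 nuclei), cell type or over all nuclei, and tested in R 4.3.3 with edgeR 4.0.16 (robust glmQLFit after TMM and filterByExpr), in place of the authors' DESingle test on single nuclei, at its limits, a fold over 1.25 or under 0.8 with an adjusted p under 0.05. Alternative tools were limma 3.58.1 and DESeq2 1.42.0, and all were tested on simulated data. Shares at 2000 UMIs were hypergeometric expectations without 387 shallower nuclei. Python 3.11.15, NumPy 2.4.6, SciPy 1.17.1, pandas 2.3.3 and matplotlib 3.10.9 were used. Totals of 14078316 to 83061737 UMIs per embryo limit the precision.

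The text names the 3 genes, with embryo values in their 3 highest clusters, the 5 genes most like each, listed pathway genes called over all nuclei or in a cell type, also without S2-4, and the highest gene of each list. One listed gene is not reported by name here. Cxcl12 in Cluster 1, Cxcr4 in Cluster 21 and other pairs outside the 3 highest clusters were chosen after their values were seen. The members and lists were chosen with earlier results of these data known. Alternatives covered batch, a replicate block, tools, normalization, filters, depth, the dam, meningeal RNA and each embryo left out. Same-numbered embryos did not deviate together, so numbers were not taken as pairs.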

Additional observations from a re-analysis of the deposited data

Results flagged for a closer look

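In 2 of the 48 groups of embryos examined, 1 embryo lay far from the others of its group, and chance sets such an embryo apart in about 1 in 20 groups. Ackr3 over all nuclei was at 40.3 CPM in EtOH embryo E1-1, against 29.3 to 32.2 in the other 5 EtOH embryos. Cxcr4 in Cluster 5 was at 11.6 CPM in saline embryo S2-2, against 3.86 to 6.07 in the other 4 saline embryos, and S2-2 also had the highest summed level of meningeal (28.0 CPM) and erythroid (113 CPM) transcripts over all nuclei, whose part in this value was not tested.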

How the results depend on the processing

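No test of Cxcl12, Cxcr4 or Ackr3 changed its call in the fits over all nuclei, the cell types or the clusters under any alternative. With no filter on low counts, 1 of 75 pairs was called, Cxcl12 in Cluster 1 (log2 fold change -1.10, edgeR adjusted p = 0.0437). That pair had too few counts to be tested in the main fit. The share of all pairs called in the unfiltered fits is not given beside it. Ackr3 in Cluster 5 passed the limit on p without S2-4 (edgeR adjusted p = 0.0392) but not that on the fold change, so it was not called. The highest cluster of each gene stayed first under the 4 alternatives tried, while without nuclei holding meningeal UMIs Cluster 8 took the third place for Cxcl12 and Cluster 20 for Cxcr4. The number of genes called in the 25 clusters, 1721, became 911 with batch as a term, 500 with the replicate block, 5651 with DESeq2, 818 without TMM, 10729 with no filter, 792 at 2000 UMIs per nucleus and 4877 with voom, and 89 to 19059 with 1 embryo left out, the 19059 being without S2-4. In the cell types, 2373 became 1551 with batch, 5 with the replicate block, 4865 with DESeq2, 827 without TMM, 653 at 2000 UMIs and 1014 per dam, and 0 to 9915 with 1 embryo left out. Over all nuclei, 2193 became 0 with the replicate block, 888 at 2000 UMIs and 357 per dam, and 409 to 4129 with 1 embryo left out. The replicate block rests on shared numbers only: same-numbered embryos had correlations of their deviations of -0.05, 0.00, 0.16, -0.10 and -0.17. The cause of these moves was not tested.

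Small log2 fold changes of the 3 genes turned direction without any passing. Cxcl12 in PN was -0.0108 with the replicate block, -0.0105 per dam and -0.0136 without meningeal nuclei. Cxcl12 in Cluster 17 was -0.0152 with batch, -0.0280 with the replicate block, -0.0273 with no filter, -0.0425 per dam and -0.159 without meningeal nuclei. Cxcr4 was -0.00172 in Int with the replicate block and 0.0632 in Cluster 14 with voom. Ackr3 over all nuclei was -0.00906 with DESeq2, -0.0100 with no filter and -0.00571 with voom, and in RGCs 0.0133 with the replicate block and 0.0205 without TMM. The batch difference without TMM was -0.0525 for Ackr3 in RGCs and -0.0532 for Cxcl12 in PN, and without S2-4, an alternative chosen after seeing the data, it was -0.0247 for Ackr3 in RGCs and 0.0155 for Cxcl12 over all nuclei. With all UMIs, 3 tests of shares in the cell types passed, and the EtOH minus saline share was -1.27 points for Cxcl12 in PN, -0.266 for Cxcr4 in Int, -0.176 for Cxcr4 in Cluster 5, -0.443 for Ackr3 in Cluster 5 and -2.91 for Ackr3 in Cluster 3. With 1 embryo left out, ranges that crossed 0 were -0.0364 to 0.13 (Cxcl12, PN), -0.22 to 0.25 (Cxcl12, Cluster 17), -0.42 to 0.0191 (Cxcr4, IPCs), -0.11 to 0.20 (Cxcr4, Int), -0.29 to 0.0861 (Cxcr4, Cluster 14), -0.42 to 0.0424 (Cxcr4, Cluster 6), -0.0543 to 0.0520 (Ackr3, all nuclei) and -0.14 to 0.0777 (Ackr3, RGCs) in log2 fold change, and -0.0221 to 0.127 (Cxcl12, Int), -0.126 to 0.150 (Cxcr4, IPCs), -0.328 to 0.183 (Cxcr4, Cluster 14), -0.154 to 0.136 (Cxcr4, Cluster 6) and -0.359 to 0.351 (Ackr3, RGCs) percentage points in share. At 2000 UMIs per nucleus, 6 of the 75 pairs held enough counts for the edgeR test.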
